A study of Mus musculus with 79 samples.

Results

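The 10 genes examined here are imprinted genes linked to growth, namely Nnat, Mest, Peg3, Plagl1, Dlk1, Igf2, H19, Cdkn1c, Grb10 and Sgce. They were taken by gene symbol from the deposited tables of mouse RNAseq, in which all 10 symbols were present among 39063 genes with a numeric gene ID. A mean of at least 0.4 TPM, the transcript level scaled for gene length and library size, over all 79 libraries was required for testing, and 9 of the 10 genes were among the 14873 that reached it. H19, a long non-coding RNA, was listed at 0 in every library and is not described further. Only 12 of 12098 genes annotated as long non-coding had any value above 0, against 19460 of 21734 protein-coding genes, so this 0 is not read as a lack of H19 RNA.

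The libraries came from 51 mice on a mixed SJLxC57BL6 background, aged 4 to 5 months, that received PBS or leptin into the cerebral ventricles (ICV) at 100 ng per h for 9 days. The authors housed the mice singly after surgery. After a recovery period they pair-fed them, PBS controls included, somewhat below the usual intake of control mice. Caudal vertebrae (CV), which are rich in constitutive bone marrow adipose tissue (cBMAT), were sequenced from all 51 mice, lumbar vertebrae (LV), the control with little marrow fat, from 18 females, and inguinal white adipose tissue (iWAT) from 10 females. Wild-type mice carried BMAd-Pnpla2+/+ (WT), and conditional knockouts (cKO) carried BMAd-Pnpla2-/-, which lack the lipase ATGL in bone marrow adipocytes but not in other fat. CV groups held 5 female WT with PBS and 5 with leptin, 5 male WT with PBS and 8 with leptin, 4 female cKO with PBS and 4 with leptin, and 5 male cKO with PBS and 4 with leptin. A further 5 male WT mice had ICV PBS and 6 had ICV leptin, both with subcutaneous insulin. LV came from 5 and 5 WT and 4 and 4 cKO females, and iWAT from 5 and 5 WT females, with PBS and leptin in turn. All animals were intact mice, and whole tissue was homogenized. The vertebral libraries therefore mix adipocytes with bone, cartilage, muscle, nerve and marrow cells. In iWAT, bone and cartilage markers such as Bglap and Acan had a median of 0 TPM. There, 4 mammary epithelium markers summed to 542 to 870 TPM with PBS and 413 to 940 TPM with leptin.

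Imprinted genes are expressed from the maternal or the paternal copy, and many of them set the growth of the fetus and the size of its tissues. Nnat, Mest, Peg3, Plagl1, Dlk1, Igf2 and Sgce are expressed from the paternal copy, and H19, Cdkn1c and, in most tissues, Grb10 from the maternal copy. Several of them act in adipose tissue, where Dlk1 marks preadipocytes and holds back their differentiation, and Mest rises in fat that expands in mice.

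Promoter sequences are shown for Nnat, Mest and Plagl1 because these are the genes whose RNA levels moved most in the comparisons that follow. The RefSeq table for GRCm38.p6 held 13 windows for 7 of the genes, and the 250 bases before each annotated start site are given 5′ to 3′ on the plus strand, on which all 3 genes lie, with CpG dinucleotides, the sites of DNA methylation, in capitals. In the GRCm38.p6 annotation, Nnat (gene ID 18111) spans 157560078 to 157562525 on chromosome 2, Mest (17294) 30733506 to 30748466 and Sgce (20392) 4674350 to 4747204 on chromosome 6, and Plagl1 (22634) 13090832 to 13131694 on chromosome 10. Igf2, H19, Cdkn1c and Peg3 lie on chromosome 7, Grb10 on chromosome 11 and Dlk1 on chromosome 12. The Nnat window is chr2:157559828-157560077, the windows of the upstream and a downstream Mest start are chr6:30733256-30733505 and chr6:30737800-30738049, and the Plagl1 window is chr10:13090582-13090831.
Nnat: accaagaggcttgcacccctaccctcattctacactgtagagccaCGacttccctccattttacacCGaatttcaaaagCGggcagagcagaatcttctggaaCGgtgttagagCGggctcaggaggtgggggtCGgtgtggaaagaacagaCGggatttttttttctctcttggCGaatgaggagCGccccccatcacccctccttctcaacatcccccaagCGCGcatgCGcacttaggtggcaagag
Mest, upstream start: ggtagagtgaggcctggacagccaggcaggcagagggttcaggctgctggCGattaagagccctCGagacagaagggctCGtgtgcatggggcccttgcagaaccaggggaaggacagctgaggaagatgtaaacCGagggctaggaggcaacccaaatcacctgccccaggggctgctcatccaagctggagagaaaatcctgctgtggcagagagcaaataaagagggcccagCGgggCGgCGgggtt
Mest, downstream start: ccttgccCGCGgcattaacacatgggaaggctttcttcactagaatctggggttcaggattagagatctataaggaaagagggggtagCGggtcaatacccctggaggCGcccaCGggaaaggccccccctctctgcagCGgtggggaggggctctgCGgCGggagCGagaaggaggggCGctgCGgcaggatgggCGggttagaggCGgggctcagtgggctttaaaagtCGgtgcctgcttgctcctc
Plagl1: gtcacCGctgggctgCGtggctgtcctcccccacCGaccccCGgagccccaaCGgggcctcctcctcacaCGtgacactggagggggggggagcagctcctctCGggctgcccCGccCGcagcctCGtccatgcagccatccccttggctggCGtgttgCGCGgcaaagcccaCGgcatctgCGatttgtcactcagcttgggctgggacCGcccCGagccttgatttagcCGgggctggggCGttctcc

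The Nnat window held 12 CpG dinucleotides, the upstream Mest window 7, the downstream Mest window 14 and the Plagl1 window 19, while all 32851 windows of the table had a median of 6 and quartiles of 2 and 16. A set of 3 short motifs was searched on both strands, and none of them lay in the Nnat window. GGGGCCCC, which the zinc-finger protein PLAGL1 binds, was found in the Peg3 window alone among the 13, starting 201 bases before the start site, and in 0.889% of all windows. TTGCNNAA, a core of sites for C/EBP proteins, was found in the upstream Mest window, starting 155 bases before the start, and in 9.56% of all windows. CACGTG, the E-box, was found in the Plagl1 window and in 6.02% of all windows.

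Library totals lay between 16100377 and 19364106 counts in CV, 17638318 and 19100698 in iWAT and 28717516 and 29757254 in LV. Of 8 mature adipocyte markers, the summed level was 4500 to 12225 TPM in CV, 54251 to 92832 TPM in iWAT and 219 to 533 TPM in LV, with Adipoq at 13.2 to 130 TPM in CV and 0.30 to 3.08 TPM in LV. Pnpla2, the gene removed in marrow adipocytes, was at 131 to 256 TPM in whole CV of female cKO and 217 to 288 TPM of female WT mice with PBS, and at 135 to 209 and 191 to 294 TPM in males, ranges that overlap and to which other cells of the bone also contribute. In CV, 7 skeletal muscle markers summed to a median of 36929 TPM in female WT with PBS and 15003 TPM with leptin, and 4 erythroid markers to 2873 and 13870 TPM. The muscle sums overlapped, at 17688 to 38495 TPM with PBS and 14437 to 33698 TPM with leptin. In edgeR 0 of the 7 were called there, and 3 of the 4 erythroid markers were called higher, where 5.04% of all genes were called. Muscle medians in male cKO CV were 42721 TPM with PBS and 40103 TPM with leptin. The part of these other cells in the results was not tested.

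In female WT mice with PBS, all 9 measured genes were higher in CV than in LV. The expression filter took the mean over all 79 libraries, 51 of them CV, so a gene could pass on its CV level alone. Dlk1 lay below 0.4 TPM in every LV library of these mice and was tested only through the other tissues. The count of 9 is thus not free of the filter. The tissues came from the same mice, and the main fit did not take the mouse as a block. The difference was 4.09 ± 0.17 (SE) on the log2 scale for Igf2 (edgeR quasi-likelihood test, Benjamini-Hochberg adjusted p = 2.01e-12), and 1.36 ± 0.13 for Grb10 at the other end (edgeR, adjusted p = 3.72e-08). Of all 14873 genes, 66.3% differed between CV and LV by an adjusted p below 0.05 and a log2 fold change of at least 0.5, and 34.7% were higher in CV. Higher genes made 52.3% of these calls, and 86.3% with limma on log2(TPM + 1). The median log2 difference was 2.64 for the 9 genes and 0.02 for all tested genes. TPM and TMM-normalized counts scale the tissues differently, since on the TPM scale the median of all genes lay 0.87 higher in CV than in LV and 0.71 lower in LV than in iWAT (log2 difference -0.71), so TPM ranges of LV are read against that shift. Fewer cells of a type and less RNA per cell cannot be told apart in such bulk samples.

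Nnat, which encodes neuronatin, a small membrane protein of the endoplasmic reticulum, stood at 68.1, 36.6, 156, 405 and 401 TPM in the 5 iWAT libraries with PBS. Its CV levels were 24.3, 18.1, 24.9, 14.4 and 33.0 TPM, and its LV levels 0.83, 0.43, 0.44, 0.45 and 1.70 TPM. The 3 tissues did not overlap, and Nnat was the 1 gene of the 9 that was lower in CV than in iWAT, by a log2 difference of -3.39 ± 0.57 (edgeR, adjusted p = 5.87e-05). Igf2, the fetal growth factor that signals through the IGF1 receptor, showed another order, with 74.0 to 126 TPM in CV, 4.09 to 6.47 TPM in iWAT and 1.96 to 4.06 TPM in LV. Its level in CV exceeded that in iWAT by 3.95 ± 0.17 on the log2 scale (edgeR, adjusted p = 1.2e-11), whereas LV against iWAT gave -0.15 ± 0.16 (edgeR, adjusted p = 0.408), and -0.67 ± 0.16 with limma on log2(TPM + 1) (adjusted p = 0.00108), close to the shift of all genes. The 7 skeletal muscle markers summed to 17688 to 38495 TPM in these CV libraries, 758 to 2567 TPM in LV and 28.1 to 2446 TPM in iWAT. Their part in the tissue differences was not tested.

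Mest, a putative hydrolase of the endoplasmic reticulum, was at 31.4 to 65.8 TPM in CV, 4.43 to 13.7 TPM in iWAT and 2.59 to 3.36 TPM in LV. Plagl1, a zinc-finger transcription factor, followed the same order with 17.0 to 25.2, 4.06 to 6.14 and 1.35 to 1.67 TPM. Peg3, also a zinc-finger protein, was at 28.1 to 42.9 TPM in CV, while the difference between LV, at 3.29 to 5.59 TPM, and iWAT, at 5.65 to 10.1 TPM, did not pass (log2 LV against iWAT 0.04 ± 0.17, edgeR, adjusted p = 0.847), and was -0.72 ± 0.15 with limma on TPM (adjusted p = 0.000367). In each of these the CV libraries lay above all libraries of the other tissues. Dlk1 RNA was scarce, at 2.98 to 8.78 TPM in CV, 0.73 to 3.68 TPM in iWAT and 0.07 to 0.32 TPM in LV. Against iWAT, the CV levels of Mest, Peg3, Plagl1 and Dlk1 were higher by 2.18, 2.04, 1.84 and 1.60 on the log2 scale, and with Igf2 and Nnat these made 6 of 9 genes that differed, where 50.9% of all tested genes did. Higher genes made 50.4% of those calls, and 60.9% with limma on TPM, where the median of all genes lay at 0.14.

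The other 3 genes differed between CV and iWAT by less than the fold threshold. Cdkn1c, an inhibitor of cyclin-dependent kinases, was at 60.6 to 74.5 TPM in CV, 41.8 to 55.0 TPM in iWAT and 4.35 to 6.30 TPM in LV. Grb10, an adaptor that binds and restrains the insulin and IGF1 receptors, was at 26.3 to 38.3, 22.5 to 30.3 and 4.89 to 6.38 TPM in the same tissues. Sgce, a sarcoglycan of the cell membrane, was at 53.8 to 71.4, 53.8 to 61.7 and 7.30 to 10.2 TPM. Their log2 differences between CV and iWAT were 0.35 ± 0.11 (adjusted p = 0.0106), 0.03 ± 0.12 (0.856) and -0.14 ± 0.08 (0.121) in edgeR, all under the fold threshold. LV was below iWAT for 7 of 9 genes, all but Peg3 and Igf2, where 67.1% of all genes differed between these tissues. With limma on TPM all 9 were lower in LV, and 18.8% of the calls were higher, against 49.0% in edgeR.

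**Figure D1:**
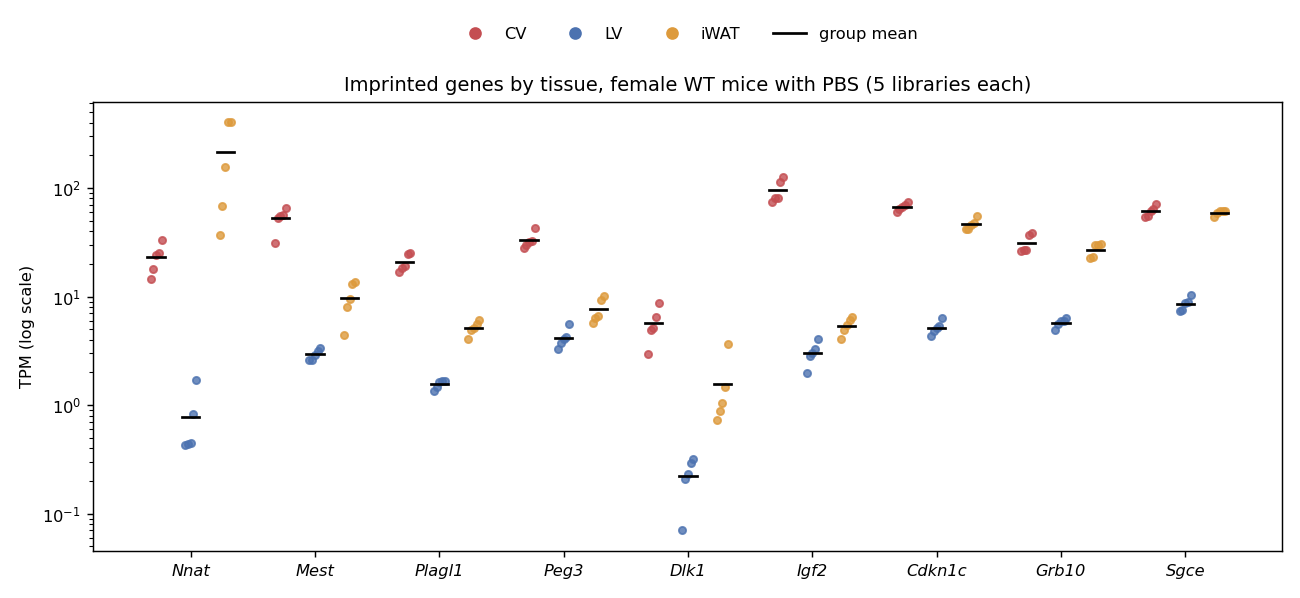
TPM of the 9 measured genes in CV, LV and iWAT of female WT mice with PBS, on a log axis, with each point a library (n = 5 per tissue) and lines at group means. LV lies lowest for each gene on this scale, and Nnat alone peaks in iWAT, at 36.6 to 405 TPM.

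The main comparison of the study asks how ICV leptin changes gene expression in bone rich in stable marrow fat. Nnat fell with leptin in CV of WT mice of both sexes and of male cKO mice, and Mest fell in male WT and male cKO mice, while Plagl1 rose in female WT mice. In female WT CV, the 2 genes called, Nnat and Plagl1, compare with 5.04% of all tested genes, 2.78% higher and 2.25% lower. Male WT CV also had 2 genes called, Nnat and Mest, both lower, against 1.75% of all genes and 0.914% on the lower side, and male cKO CV had the same pair against 0.188%, with 0.101% lower and 0.0874% higher. In female cKO CV none of the 9 was called by edgeR, where 0.0269% of all genes were, although 2 of 9 had an unadjusted p below 0.05 and DESeq2 called 2. DESeq2 called 219 of all genes there, against 4 with edgeR. Higher genes made 47.7% of the male WT calls in edgeR and 59.0% with limma on TPM, and 46.4% and 26.7% of the male cKO calls. Averaged over the 4 sex and genotype groups, Nnat and Mest were called, both lower, against 5.39% of all genes, 2.2% lower and 3.19% higher, and the median log2 change was 0.08 for the 9 genes and 0.00 for all tested genes.

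Nnat levels in female WT CV were 24.3, 18.1, 24.9, 14.4 and 33.0 TPM with PBS and 3.61, 1.00, 1.37, 3.46 and 2.34 TPM with leptin. In male WT CV they were 15.0, 26.2, 11.9, 8.80 and 25.3 TPM with PBS, while the 8 leptin libraries had a lowest value of 0.46, a median of 1.46 and a highest value of 2.24 TPM. No leptin library reached the lowest PBS library in either sex. The fall was 3.34 ± 0.31 on the log2 scale in females (log2 fold change -3.34, edgeR, adjusted p = 0.000396) and 3.71 ± 0.35 in males (log2 fold change -3.71, edgeR, adjusted p = 4.7e-05). Leptin libraries of WT CV held 6 to 42 counts of Nnat, so their single values carry a large counting error. Within the mouse-number series of the labels the difference in mean log2(TPM + 0.1) was -3.47 and -3.23 in females whose mouse numbers begin with 1 and with 6, and -3.97 and -3.08 in males.

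In cKO mice the same gene had 12.7, 17.8, 92.6 and 38.7 TPM with PBS in female CV and 0.24, 5.53, 1.73 and 3.65 TPM with leptin. Male cKO CV had 27.7, 11.9, 22.0, 11.8 and 13.1 TPM with PBS and 4.33, 1.69, 1.91 and 2.56 TPM with leptin. The groups did not overlap in either sex of the cKO. The log2 fold change was -3.72 ± 0.78 in females (edgeR, adjusted p = 0.17) and -2.69 ± 0.33 in males (edgeR, adjusted p = 0.0128), and the female value had a wider error than in WT mice. In males the adjusted p of the edgeR test became 0.107 with mouse series as a covariate and 0.0692 without the third leptin library. Adipocyte markers moved in the same comparisons. The median of their sum was lower with leptin in each CV group, at 9441 and 8484 TPM in female WT, 7721 and 6919 TPM in male WT, 7771 and 5660 TPM in female cKO and 9682 and 7401 TPM in male cKO mice. Of the 8 markers, 3 fell in female WT CV and 3 in male WT CV, namely Lep, Adipoq and Plin1, and 1, Lep, in each cKO group, and none rose (edgeR). Adipoq changed by -0.89 ± 0.22 and -0.84 ± 0.17 and Plin1 by -1.37 ± 0.27 and -1.23 ± 0.20 in female and male WT CV (edgeR, adjusted p = 0.0309, 0.0143, 0.0142 and 0.00517). Over the 4 CV groups 5 of 8 fell, with a median log2 fold change of -0.69, and their part in the results for Nnat and Mest was not tested. Averaged over the 4 groups Nnat fell by 3.37 ± 0.25 on the log2 scale, a 10.3-fold difference (edgeR, adjusted p = 4.61e-12).

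**Figure D2:**
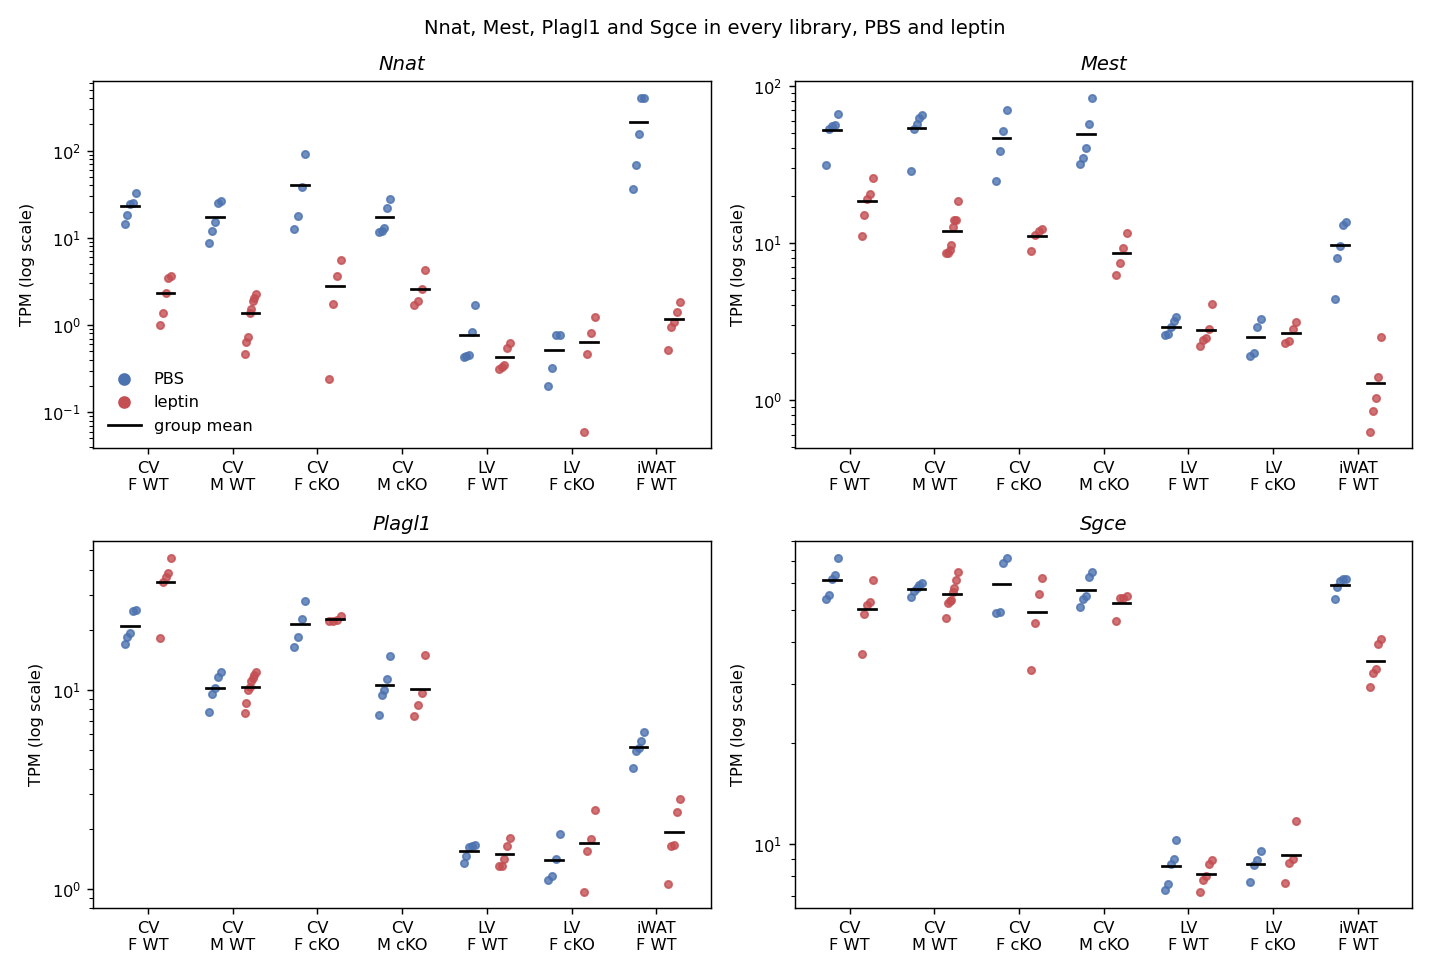
TPM of Nnat, Mest, Plagl1 and Sgce in each library with PBS and with leptin, by tissue, sex (F, M) and genotype, on log axes with lines at group means. Nnat with leptin is below every PBS library of its group in CV and in iWAT, where it falls from 36.6 to 405 TPM to 0.51 to 1.86 TPM, and in LV the groups overlap.

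The response of Nnat in female WT iWAT was the largest of the 9 genes in any leptin comparison. PBS libraries were at 68.1, 36.6, 156, 405 and 401 TPM, and leptin libraries at 1.86, 1.09, 0.94, 1.41 and 0.51 TPM. The PBS values of 405 and 401 TPM belong to mice with numbers that begin with 6, and the 3 lower values to those that begin with 1, whereas leptin values of the 2 series overlapped. The log2 fold change was -7.43 ± 0.81, or 173-fold (edgeR, adjusted p = 0.000224), with -5.58 in the series of 1 and -8.68 in that of 6 as differences of mean log2(TPM + 0.1). In LV of WT females, with 0.43 to 1.70 TPM with PBS and 0.31 to 0.62 TPM with leptin, the groups overlapped and the log2 fold change was -0.88 ± 0.42 (edgeR, adjusted p = 0.363).

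Mest in female WT CV was at 56.3, 55.2, 31.4, 65.8 and 53.3 TPM with PBS and 11.2, 15.2, 18.97, 26.0 and 20.6 TPM with leptin. Male WT CV had 65.5, 53.6, 28.9, 57.7 and 62.8 TPM with PBS, and 8.64, 11.2 and 18.4 TPM as the lowest, median and highest of 8 leptin libraries. On the TPM scale, leptin and PBS libraries did not overlap in either sex. In male cKO CV Mest was at 34.6, 40.5, 84.2, 31.9 and 57.3 TPM with PBS and 11.6, 6.25, 7.51 and 9.30 TPM with leptin. Female cKO CV had 24.7, 38.7, 70.7 and 51.5 TPM against 11.9, 12.3, 11.2 and 8.92 TPM, again with no overlap.

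The test on counts gave smaller changes for Mest than these TPM values. Counts in female WT CV overlapped, at 1342 to 2751 with PBS and 1052 to 2065 with leptin. Those of cKO CV and of male WT CV without insulin did not. In females the log2 fold change of counts was -0.60 ± 0.20 (edgeR, adjusted p = 0.0857) in WT and -1.03 ± 0.23 (edgeR, adjusted p = 0.192) in cKO mice. In males it was -1.55 ± 0.14 (edgeR, adjusted p = 4.7e-05) in WT and -1.85 ± 0.30 (edgeR, adjusted p = 0.039) in cKO mice, and the cKO call was lost without any single one of 7 of the 9 male cKO libraries, with the replicate block (adjusted p = 0.119) and with mouse series as a covariate (0.182). On the TPM scale with a pseudocount of 1, limma gave -1.47 ± 0.23 in female WT CV (adjusted p = 0.00742). Averaged over the 4 CV groups, counts of Mest fell by 1.26 ± 0.12 on the log2 scale (edgeR, adjusted p = 1.53e-09).

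The 2 scales differ for Mest in the transcript length that they imply. A gene's count divided by its TPM in the same library scales with the length used for it. The scale was set by 378 genes with 1 transcript in the GENCODE vM21 annotation, at 83.5 bases per unit, with quartiles of 81.2 and 87.7. The implied Mest length was 3865 ± 409 bases (SD, n = 5) in female WT CV with PBS and 7552 ± 1449 (SD, n = 5) with leptin. Male WT CV had 3057 ± 142 (SD, n = 5) and 5027 ± 792 bases (SD, n = 8), and in both sexes the shortest leptin value, 5772 and 3598 bases, lay above the longest PBS value, 4351 and 3303 bases. The cKO groups moved likewise, from a mean of 3777 to 7225 bases in females and from 3059 to 4826 bases in males.

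In iWAT it was 4366 ± 1185 bases with PBS and 9424 ± 4384 with leptin (SD, n = 5 each), although leptin libraries with as few as 91 counts make these values coarse and the groups overlapped. In LV of WT females, where Mest was not called, the implied length was 3063 bases with PBS and 2936 with leptin. The ratio of leptin to PBS was 1.95 and 1.64 in female and male WT CV, 1.91 and 1.58 in cKO CV, and 2.16 in iWAT, the highest of all genes with at least 30 counts in each of these 5 comparisons, which numbered 12346 to 12920. No more than 2 genes reached a ratio of 1.5 in any of them, and for the other members with enough counts the ratio stayed between 0.901 and 1.06. This measure was chosen after the Mest values were seen and has no test. GENCODE vM21, which also set the scale, lists 11 Mest transcripts of 341 to 2665 bases, shorter than the implied lengths. The deposited values were made with a RefSeq version of GRCm38.p6, and the Mest transcript lengths used there were not compared. In GENCODE vM21, 912 of the 3945 exon bases of Mest are shared with Copg2 on the opposite strand. Counts of Copg2 changed by -0.05 ± 0.09 with leptin in female WT CV (edgeR, adjusted p = 0.775), and whether counting used the strand is not given in the sources used here.

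**Figure D3:**
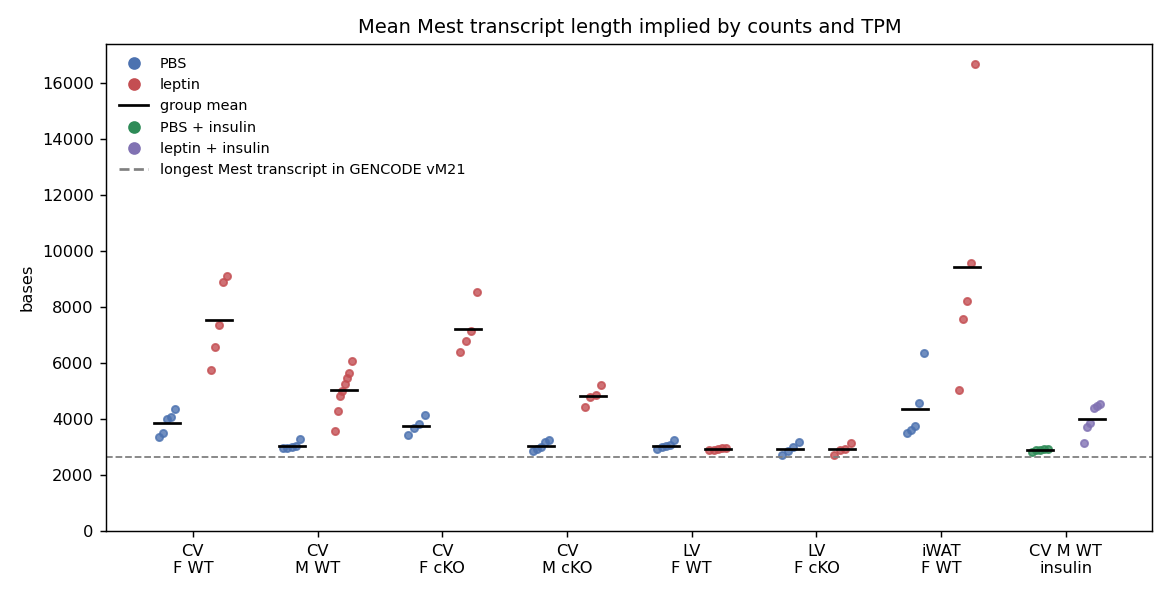
Transcript length in bases that count and TPM imply for Mest in each library, by group, with PBS and leptin side by side, also with insulin, and lines at group means. The dashed line marks the longest Mest transcript in GENCODE vM21 (2665 bases). In CV of mice without insulin the leptin libraries lie above the PBS libraries of each group, for example 5772 to 9115 against 3382 to 4351 bases in female WT mice, while in LV of WT females all libraries lie between 2887 and 3250 bases.

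In iWAT, Mest fell from 13.1, 13.7, 9.53, 7.97 and 4.43 TPM with PBS to 1.40, 1.03, 0.63, 0.85 and 2.53 TPM with leptin. All leptin libraries were below all PBS libraries, and the log2 fold change of counts was -1.86 ± 0.19 (edgeR, adjusted p = 0.000146). Nnat, Mest, Plagl1 and Sgce made 4 of 9 genes called in iWAT, all lower with leptin, where 15.1% of all tested genes were called, 7.87% lower and 7.24% higher. Higher genes made 47.9% of these calls in edgeR and 24.7% with limma on TPM. The median log2 change in iWAT was -0.34 for the 9 genes and 0.07 for all tested genes. In LV none of the 9 genes was called by edgeR, DESeq2 or limma in WT or cKO females, and edgeR called 0% of all genes there, with 2183 and 1331 genes at an unadjusted p below 0.05 and 0 of the 9. Nnat held only 14 to 56 counts with PBS and 10 to 20 with leptin in WT LV, and 7 to 26 and 2 to 44 in cKO LV. Dlk1 lay below 0.4 TPM in WT LV with PBS. A missing call says little for these genes.

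Plagl1 moved in opposite directions in the 2 fat-bearing tissues of the same WT females. In CV it was at 17.0, 18.4, 19.2, 24.8 and 25.2 TPM with PBS and 38.7, 18.2, 45.9, 36.8 and 34.9 TPM with leptin. In iWAT it was at 4.06, 4.91, 6.14, 5.13 and 5.54 TPM with PBS and 1.66, 2.84, 2.43, 1.06 and 1.65 TPM with leptin. The groups were apart in iWAT, and in CV 1 leptin library, the second, lay among the PBS libraries. The log2 fold change was 0.70 ± 0.16 in CV (edgeR, adjusted p = 0.0256) and -1.33 ± 0.23 in iWAT (edgeR, adjusted p = 0.00243). The call in CV was lost without PBS replicate 1 or 2 or leptin replicate 4 or 5, with adjusted p of 0.0547 to 0.0706 in edgeR, and limma on TPM gave 0.67 (adjusted p = 0.0831). The 6 osteoblast and osteocyte markers moved with it in female WT CV, from sums of 2308 to 6281 TPM (median 4515) with PBS to 5161 to 15859 TPM (median 12697) with leptin, and 2 of the 6, Col1a1 and Sp7, rose by 1.66 ± 0.37 and 0.98 ± 0.20 (edgeR, adjusted p = 0.0225 and 0.0164). Their median sums were 1701 and 1134 TPM in male WT CV and 8867 and 7820 TPM in female cKO CV, with PBS and leptin in turn, and 0 of the 6 were called there. Their part in the Plagl1 change was not tested.

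In male WT CV the 5 PBS libraries of Plagl1 spanned 7.72 to 12.3 TPM and the 8 leptin libraries 7.66 to 12.3 TPM, with a log2 fold change of -0.03 ± 0.12 (edgeR, adjusted p = 0.908). Female cKO CV spanned 16.3 to 27.9 TPM with PBS and 22.0 to 23.5 TPM with leptin, a log2 fold change of 0.17 ± 0.14 (edgeR, adjusted p = 0.637). Neither group separated leptin from PBS. Peg3 showed no called change with leptin in any tissue, with log2 fold changes from -0.39 ± 0.19 in female WT CV (edgeR, adjusted p = 0.206) to 0.46 ± 0.31 in iWAT (edgeR, adjusted p = 0.294).

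Sgce in iWAT fell from 61.2, 58.3, 61.7, 53.8 and 61.6 TPM with PBS to 32.3, 40.8, 39.6, 29.3 and 33.2 TPM with leptin. The groups were far apart, and the log2 fold change was -0.67 ± 0.09 (edgeR, adjusted p = 0.000815). In female WT CV the levels were 61.8, 55.3, 53.8, 63.7 and 71.4 TPM with PBS and 48.6, 37.0, 61.3, 52.7 and 51.8 TPM with leptin, which overlapped. The CV change of -0.33 ± 0.09 had an adjusted p of 0.0384 in edgeR and stayed under the fold threshold.

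Among the growth factor and its modifiers, no leptin comparison gave a called change. Igf2 in female WT CV spanned 74.0 to 126 TPM with PBS and 47.1 to 118 TPM with leptin, with a log2 fold change of -0.08 ± 0.20 (edgeR, adjusted p = 0.838). In male WT CV it spanned 76.4 to 101 TPM and 89.0 to 155 TPM, with 0.28 ± 0.12 (edgeR, adjusted p = 0.226). Both pairs of groups overlapped. Igf2 shares 3596 of its 5723 exon bases with Gm49394 on the same strand, so counts that fall there depend on the annotation used. No gene of that name is listed among the deposited counts. Grb10 was the steadiest gene, with log2 fold changes of 0.01 ± 0.15 to 0.13 ± 0.08 over the 4 CV groups and 0.01 ± 0.12 in iWAT.

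Dlk1 had a positive leptin change in each of the 4 CV groups, from 0.13 ± 0.35 in female cKO to 0.64 ± 0.23 in male cKO mice. In male cKO CV the range was 1.57 to 4.92 TPM with PBS and 4.81 to 6.35 TPM with leptin, so the groups met at their edges. Averaged over the 4 groups the log2 fold change was 0.41 ± 0.15 (edgeR, adjusted p = 0.0397), under the fold threshold. Cdkn1c changed by 0.11 ± 0.09 to 0.14 ± 0.10 in the 4 CV groups and by -0.34 ± 0.14 in iWAT (edgeR, adjusted p = 0.0898), where it spanned 41.8 to 55.0 TPM with PBS and 25.4 to 45.3 TPM with leptin. Part of Cdkn1c, 625 of 2039 exon bases, overlaps the antisense gene Gm44732, which is also not listed among the deposited counts.

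**Figure D4:**
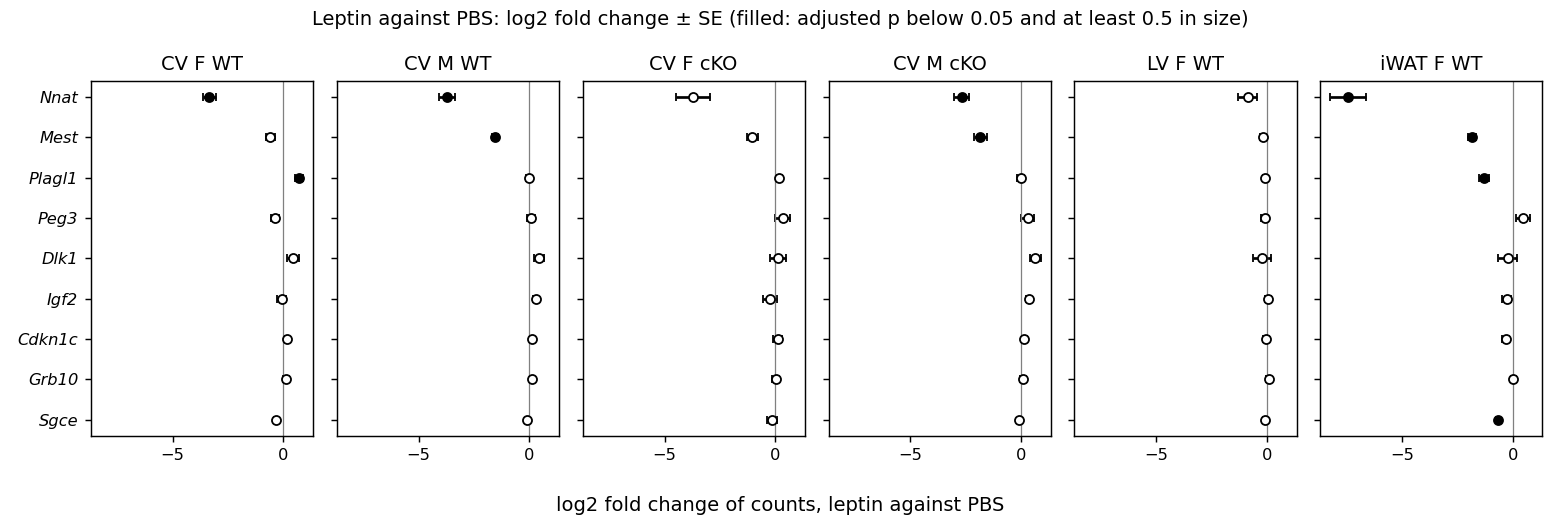
Log2 fold change of each gene with leptin against PBS by tissue, sex and genotype, from edgeR, with error bars of 1 SE and filled points for calls. Nnat lies between -2.69 and -3.72 in the 4 CV groups and at -7.43 in iWAT, and Grb10 lies between 0.01 and 0.13 in the CV groups and at 0.01 in iWAT.

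The leptin effect was compared between CV and iWAT of the same 10 WT females, as the difference of the log2 fold changes, CV minus iWAT. It was 4.13 ± 0.89 for Nnat (edgeR, adjusted p = 0.00434), 2.06 ± 0.29 for Plagl1 (adjusted p = 0.000171), 1.30 ± 0.29 for Mest (adjusted p = 0.00605) and 0.52 ± 0.17 for Cdkn1c (adjusted p = 0.0458). These 4 of 9 genes had a more positive change in CV, where 15.5% of all genes differed and 9.12% in that direction. Higher genes made 59.0% of these calls in edgeR and 79.1% with limma on TPM, which did not call Mest (0.72 ± 0.39, adjusted p = 0.228). The Cdkn1c difference was lost without any single one of 13 of the 20 libraries. Sgce, at 0.38 ± 0.13 (edgeR, adjusted p = 0.0595), did not pass. Adipocyte markers summed to 8643 to 12225 TPM with PBS and 5068 to 9850 TPM with leptin in female WT CV, and to 64371 to 82674 and 54251 to 92832 TPM in iWAT, with overlap in both tissues. Fabp4 and Cfd made up most of this sum in CV, with medians of 4860 and 2374 TPM. In iWAT the sum hid opposite moves. Fabp4 was at 35000 to 50200 TPM with PBS and 11100 to 27100 TPM with leptin, and Cfd at 15600 to 23000 and 38500 to 60400 TPM. Of the 8 markers, 3 were called lower and 1 higher with leptin in iWAT (edgeR), where 15.1% of all genes were called. Of 4 erythroid markers, 3 were called lower in iWAT, with sums of 2343 to 3197 TPM with PBS and 257 to 1328 TPM with leptin. No mammary epithelium marker was called there. The part of all these markers in the iWAT results was not tested.

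The cKO mice were compared with WT mice to ask what loss of ATGL in marrow adipocytes changes. With PBS, none of the 9 genes was called by edgeR in female CV, male CV or female LV, and 0% of all genes were called in each, with 1476, 783 and 388 genes at an unadjusted p below 0.05. Averaged over sex and treatment in CV, 0.249% of all genes and none of the 9 were called by edgeR, with 2 of 9 at an unadjusted p below 0.05 and 0 called by DESeq2 or limma. Those 2 were Mest, at a log2 difference of cKO minus WT of -0.34 ± 0.12 (edgeR, adjusted p = 0.216), and Nnat, at 0.54 ± 0.25 (edgeR, adjusted p = 0.335). Female cKO CV with PBS held the highest Nnat value of all CV libraries, 92.6 TPM, and the WT females reached 33.0 TPM. That library belongs to a mouse-number series that occurs only in cKO groups, so genotype and series are partly mixed in these comparisons. Among mice with numbers that begin with 1, mean Nnat with PBS was 15.25 TPM in female cKO and 22.4 in female WT CV. In males of that series the means went the other way, at 19.8 TPM in cKO and 17.7 TPM in WT CV. These means rest on 2 cKO and 3 WT mice in each sex.

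The difference in the leptin effect between genotypes, averaged over sex, was 0.31 ± 0.49 for Nnat (edgeR, adjusted p = 0.947) and -0.37 ± 0.24 for Mest (edgeR, adjusted p = 0.816). None of the 9 passed by edgeR, DESeq2 or limma or had an unadjusted p below 0.05, and 0% of all genes passed in edgeR, with 941 at an unadjusted p below 0.05. The error of 0.49 leaves a wide range for the Nnat difference.

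The sexes were compared in WT CV with PBS. Plagl1 was higher in females, at 17.0 to 25.2 TPM, than in males, at 7.72 to 12.3 TPM, and the ranges did not overlap. The log2 difference, female minus male, was 0.78 ± 0.15 (edgeR, adjusted p = 0.000989), the only call among 9 genes where 7.55% of all genes were called, 4.01% higher in females and 3.54% lower. Higher genes made 53.2% of these calls, and 93.9% with limma on TPM, on which scale the median of all genes was 0.20 higher in females. Cdkn1c was at 60.6 to 74.5 TPM in females and 38.5 to 47.2 TPM in males, with a log2 difference of 0.39 ± 0.09 (edgeR, adjusted p = 0.00456) under the fold threshold. Osteoblast and osteocyte markers, 6 genes, summed to 2308 to 6281 TPM in these females and 741 to 1924 TPM in the males, and their part in the difference was not tested. For the leptin effect, female minus male, Plagl1 had 0.76 ± 0.20 and Mest 0.98 ± 0.26 (edgeR, adjusted p = 0.242 for each), 2 of 9 had an unadjusted p below 0.05, and 0% of all genes passed, with 1130 at an unadjusted p below 0.05.

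Insulin was given to male WT mice to ask which leptin responses it reverses. The insulin mice carry mouse numbers that begin with 3 or 4, so insulin and mouse series cannot be told apart. Nnat in CV was at 7.33, 15.4, 27.7, 24.8 and 31.5 TPM with PBS and insulin, and at 0.62, 4.78 and 18.9 TPM as the lowest, median and highest of 6 libraries with leptin and insulin. The leptin libraries without insulin reached 2.24 TPM at most, and 4 of the 6 with insulin lay above that. Mest was at 100, 69.4, 62.1, 105 and 91.1 TPM with PBS and insulin, and at 9.92, 20.1 and 60.5 TPM as the lowest, median and highest with leptin and insulin.

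Against leptin alone, leptin with insulin had a Nnat log2 difference of 2.21 ± 0.54 (edgeR, adjusted p = 0.0541) and a Mest difference of 0.67 ± 0.22 (edgeR, adjusted p = 0.136). No member was called by edgeR, where 0.363% of all genes were, and DESeq2 called 1. Nnat passed the edgeR threshold without replicate 1, 2 or 6 of leptin with insulin or replicate 1 of PBS with insulin, with adjusted p of 0.0229 to 0.0496. The difference in the leptin effect with and without insulin was 2.02 ± 0.75 for Nnat (edgeR, adjusted p = 0.529) and 0.16 ± 0.34 for Mest (edgeR, adjusted p = 0.897), in a test that 0% of all genes passed, with 1385 at an unadjusted p below 0.05.

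Against PBS with insulin, Mest was lower with leptin and insulin by a log2 fold change of -1.39 ± 0.25 (edgeR, adjusted p = 0.0135), the single call of the 9 genes where 0.558% of all genes were called, and Nnat had -1.69 ± 0.51 (edgeR, adjusted p = 0.0983). Against PBS alone, none of the 9 was called by edgeR, where 1.1% of all genes were, with Mest at -0.88 ± 0.25 (edgeR, adjusted p = 0.0649) and Nnat at -1.50 ± 0.51 (edgeR, adjusted p = 0.126), while DESeq2 and limma each called 1. The third library of leptin with insulin had the highest values of both genes, 18.9 and 60.5 TPM, and the highest adipocyte marker sum of its group, 11012 TPM. Without it the Nnat change was -2.38 against PBS with insulin (edgeR, adjusted p = 0.012) and -2.19 against PBS (edgeR, adjusted p = 0.0212), and that of Mest against PBS was -1.21 (edgeR, adjusted p = 0.00346). Insulin with PBS against PBS alone gave no call among the 9 or among all genes (0%, edgeR, with 976 at an unadjusted p below 0.05), with 0.51 ± 0.26 for Mest (edgeR, adjusted p = 0.764).

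**Figure D5:**
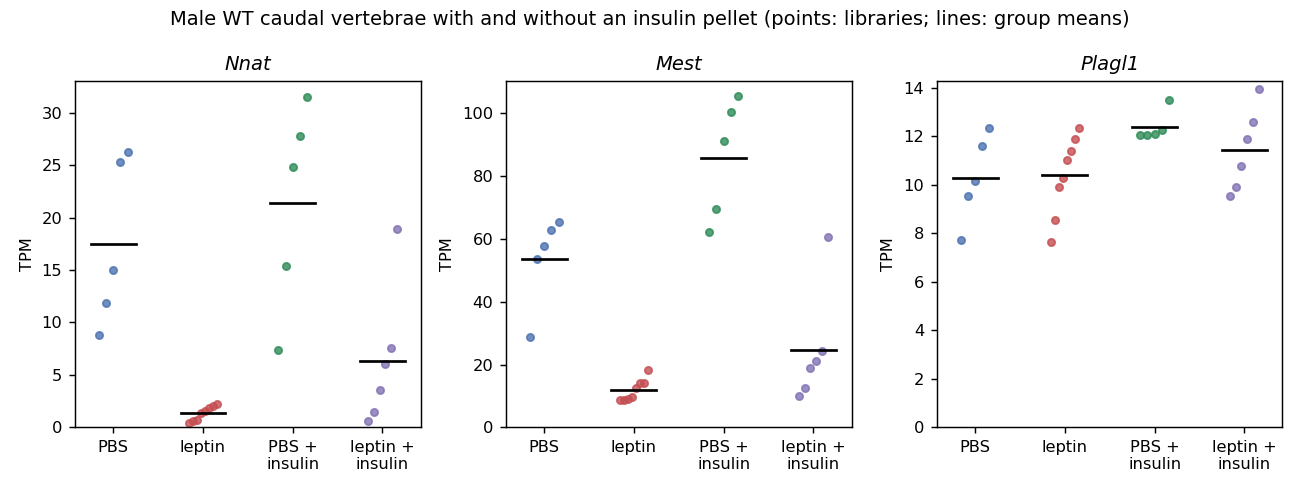
TPM of Nnat, Mest and Plagl1 in CV of male WT mice with PBS, leptin, PBS and insulin, or leptin and insulin, on linear axes that start at 0, with each point a library and lines at group means. With leptin and insulin Nnat spreads from 0.62 to 18.9 TPM, across the gap between leptin alone (0.46 to 2.24 TPM) and PBS alone (8.80 to 26.2 TPM).

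Of 42 other imprinted genes, 28 reached the expression threshold. Averaged over the CV groups, 1 rose and 1 fell with leptin, where 5.39% of all genes were called. Snrpn, which encodes a component of small nuclear ribonucleoproteins, fell by 0.51 ± 0.09 on the log2 scale (log2 fold change -0.51, edgeR, adjusted p = 3.95e-05), and Tfpi2, a protease inhibitor, rose by 0.72 ± 0.17 (edgeR, adjusted p = 0.0017). In iWAT, 7 of the 28 fell and 1 rose, where 15.1% of all genes were called. They included Snrpn at -1.52 ± 0.17 (edgeR, adjusted p = 0.000226) and Blcap, the gene in whose intron Nnat lies on the opposite strand, at -1.29 ± 0.21 (edgeR, adjusted p = 0.00185). Blcap in CV of WT females changed by -0.07 ± 0.06 (edgeR, adjusted p = 0.518), and no exon base is shared by Nnat and Blcap. The counts were 3 of 28 in female WT CV (5.04% of all genes), 1 of 28 in male WT CV (1.75%) and none by edgeR in cKO CV or LV. Between tissues, 15 were higher and 7 lower in CV than in LV (66.3% of all genes called), 7 higher and 10 lower in CV than in iWAT (50.9%), and 6 higher and 14 lower in LV than in iWAT (67.1%), with a median log2 difference of 0.57, -0.24 and -0.51.

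Among 15 genes of IGF and insulin signalling, 13 reached the threshold. Averaged over the CV groups 2 were called, where 5.39% of all genes were. Igfbp5, an IGF-binding protein, fell by 0.83 ± 0.13 (log2 fold change -0.83, edgeR, adjusted p = 1.05e-05) and Irs2, an insulin receptor substrate, rose by 0.54 ± 0.15 (edgeR, adjusted p = 0.00695). In iWAT 2 rose, among them Irs2 at 0.90 ± 0.25 (edgeR, adjusted p = 0.0253), and 1 fell, where 15.1% of all genes were called. Female and male WT CV had 1 call each (5.04% and 1.75% of all genes), and cKO CV and LV none by edgeR. In CV against LV 12 were higher and 1 lower (66.3% of all genes called), in CV against iWAT 5 were higher and 1 lower (50.9%), and in LV against iWAT 1 was higher and 9 lower (67.1%).

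The genes whose levels over the 51 CV libraries ran closest to each member were found by Pearson's r of log2(TPM + 0.1). These libraries share sex, treatment and cell mix, so r is given as a description. For Nnat the closest were Lep, the leptin gene, at r = 0.901, Trarg1, a regulator of glucose transporter traffic, at 0.883, and Mgll, the monoglyceride lipase, at 0.882. Mest stood at r = 0.818 with Nnat, and its closest genes were Mcam (0.878), Glb1l2 (0.876) and Trarg1 (0.871). These r values rest on TPM, which moved more for Mest than its counts did. Averaged over the CV groups, its log2 fold change with leptin was -1.94 with limma on TPM and -1.26 for counts in edgeR. Lep itself was at 18.8 to 47.1 TPM with PBS and 0.03 to 1.71 TPM with leptin in female WT CV.

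Plagl1 ran closest to Tns3 (r = 0.954), Cadm1 (0.949) and Fzd5 (0.943), and among the members to Grb10 (0.851) and Cdkn1c (0.849), while its r with Nnat was 0.0880. Grb10 was closest to Spg20 (0.946), and Cdkn1c to Tcf7l1 (0.879). Peg3 was closest to Zim1 (0.896), an imprinted zinc-finger gene beside it on chromosome 7. Sgce was closest to Prnp (0.889), Igf2 to Lbx1 (0.827) and Dlk1 to Man1c1 (0.727), the lowest of these first ranks.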

How the data were processed

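RNA of 79 samples was enriched with oligo dT and read as 100 bp pairs. The authors cleaned the reads in SOAPnuke and mapped them by HISAT and Bowtie2 (GRCm38.p6, with GRCm39 also listed in their processing notes). The counting tool and its strand setting are not given in the sources used here. The authors deposited estimated counts per gene without normalization, of which 51 values in 6 genes were not whole and were rounded, and TPM values from the same pipeline. Of 74693 features, 35630 without a numeric gene ID were at 0 throughout and were left out.

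Counts of 14873 genes (mean TPM over all libraries not below 0.4) were compared in edgeR 4.0.16 (R 4.3.3), with TMM normalization, the quasi-likelihood test and Benjamini-Hochberg adjustment over these genes. Genes were called at an adjusted p below 0.05 and a log2 fold change of at least 0.5 in size, and interactions at an adjusted p below 0.05 alone. Groups come from the sample labels, and each leptin and PBS pair was fitted alone, interactions, tissues and insulin groups in joint fits. Standard errors come from the F statistic. Every member was named in each comparison, with counts of the other lists, their genes called in the averaged CV contrast (others of these lists and of the cell type markers were named after their values were seen), and the 3 genes closest to each member. The members and lists were chosen with earlier results of these data known. Alternatives were DESeq2 1.42.0, RLE size factors, no filter, limma 3.58.1 on TPM, the replicate number as a block, mouse series as a covariate, no fold threshold and leaving out each library. Scripts were tested on simulated data. Same-numbered leptin and PBS samples are different mice, whose deviations correlated at -0.32 to 0.439 and were not taken as pairs. CV, LV and iWAT of one mouse share its number. No 2 libraries of a group were copies of each other. Within a tissue, samples are separate mice, and intervals and errors of low counts cover the spread between these mice only. Comparisons between tissues, also of the leptin effect, were fitted without the mouse as a block. Libraries of the same mouse were treated as independent there.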

Additional observations from a re-analysis of the deposited data

Results flagged for a closer look

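In 144 groups of 4 to 8 libraries, 1 for each gene and group that could be checked, 4 single libraries lay far from the rest of their group, by the gap to the nearest library as a share of the group's range. Chance flags about 1 in 20 groups. Mest was at 60.5 TPM in the third library of male WT CV with leptin and insulin, with the next at 24.4 TPM and the lowest at 9.92 TPM. Plagl1 was at 13.5 TPM in the fourth library of male WT CV with PBS and insulin, with the next at 12.3 TPM. Dlk1 was at 3.68 TPM in the second PBS library of female WT iWAT, with the next at 1.46 TPM. Sgce was at 46.5 TPM in the second leptin library of male cKO CV, with the nearest at 54.1 TPM.

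The leptin effect differed between CV and iWAT of WT females for 4 genes by the interaction test of edgeR, with a difference of log2 fold changes of 4.13 for Nnat, 2.06 for Plagl1, 1.30 for Mest and 0.52 for Cdkn1c. For Plagl1 the change was positive in CV and negative in iWAT, and for Nnat and Mest it was negative in both.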

How the results depend on the processing

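The 50 gene results followed here were every call of a member and chosen uncalled results of Nnat, Mest and Plagl1. Many of the calls were strong tissue differences, and gains by other uncalled results were not counted. Sgce in leptin by tissue was such a result, and its adjusted p in edgeR was 0.0202 without the second leptin library of iWAT. Apart from leaving out libraries, of 313 alternative values for these 50 results 298 kept their direction and their side of the threshold, 6 lost the call, 9 gained it and none changed direction. Of 833 values without 1 library, 25 lost the call, 9 gained it and none changed direction. Alternatives that moved a count of called members by over 1.5 times were as follows. DESeq2 called 2 members in female cKO CV, 1 in leptin with insulin against leptin and 1 against PBS. Limma on log2(TPM + 1) called 2 for sex, 2 in leptin with insulin against PBS with insulin, and 1 against PBS. Without the fold threshold 4 were called in averaged CV and 2 for sex. With the replicate block male cKO CV had 1 call, Nnat, and with mouse series as a covariate 0, and in all the other comparisons the block left the count of members within 1.5 times. Leaving out 1 library gave 1 to 3 calls in female WT CV, 0 to 2 in male cKO CV, 0 to 1 in leptin with insulin against leptin, 1 to 2 against PBS with insulin and 0 to 2 against PBS. The cause of these moves was not tested. Mest in female WT CV was called by DESeq2 (adjusted p = 0.0344), limma (0.00742) and edgeR with the series covariate (0.00895), which in iWAT was added after the data were seen. Over all genes, calls in female WT CV were 749, and 302 to 941 without 1 library. In male WT CV they were 260, against 464 with DESeq2, 65 with the replicate block, 416 with the series covariate and 130 to 338 without 1 library. In female cKO CV they were 4, against 219 with DESeq2, 13 with the block and 0 to 40 without 1 library, and in male cKO CV 28, against 214, 14, and 5 to 65, with 13 for the series covariate. For leptin with insulin against leptin they were 54, against 174 with DESeq2, 16 with limma and 8 to 107 without 1 library, against PBS with insulin 83, with 229 in DESeq2 and as few as 9 without 1 library, and against PBS 164, 269 with DESeq2, 97 with limma and 46 to 234. In averaged CV they were 801, and 417 with limma. Where edgeR called 0 genes, DESeq2 called 144 and 72 in WT and cKO LV, 47, 40 and 14 for genotype in female CV, male CV and female LV, 30 for leptin by sex and 21 for leptin by insulin. No member fell under the expression filter with a value above 0, so the permutation test planned for such genes was not run. Leptin groups of Nnat held few counts, and single values there are limited by depth.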
